A study of Mus musculus with 32 samples.

Results

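The type-I interferon receptor, its kinases and the transcription factors they act on were followed here in mouse neural stem cells (NSCs), as the 8 genes Ifnar1, Ifnar2, Jak1, Jak2, Tyk2, Stat2, Stat3 and Irf9. They were chosen by name for their place in the pathway, with earlier results of these data known. Each symbol was taken to its row in the count tables, which hold 23035 genes for ribosome footprints and 39017 for total RNA. All 8 had a row in both. NSCs came from the ventricular-subventricular zone (vSVZ) of male C57BL/6 mice of 8 to 12 weeks and were cultured with EGF and FGF. At 48 h after seeding they received recombinant IFN-β or its BSA-containing vehicle for 2 h or 14 h, and every culture, vehicle included, was given cycloheximide before lysis. Each of the 4 groups (vehicle 2 h, IFN-β 2 h, vehicle 14 h, IFN-β 14 h) has 4 numbered cultures, with a footprint library and a total RNA library from the same lysate, which makes 32 libraries. The vehicle cultures were harvested at the same times as the treated ones. By the study's methods, its biological replicates were separate mice or NSC cultures derived from separate mice, and the labels give no animal for a number.

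Type-I interferons bind a receptor of 2 subunits, Ifnar1 and Ifnar2, which carry the kinases Tyk2 and Jak1. The kinases phosphorylate STAT proteins, and ISGF3, a complex of STATs with Irf9, enters the nucleus and binds interferon-stimulated response elements in the promoters of interferon-stimulated genes (ISGs). Jak2 and Stat3 serve several cytokine and growth factor receptors, and Stat3 is known in the vSVZ for its part in gliogenesis.

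Footprint libraries held 4956144 to 9361609 counts at 2 h and 2956297 to 10505108 at 14 h. The 8 genes together took 2840 to 11768 footprints per library, but only 25 to 365 counts per total RNA library, where the actin gene Actb had 47 to 854 counts against 18780 to 73117 in footprints. Genes with an annotated gene opposite them took 90.6% to 95.2% of the total RNA counts and 39.7% to 41.5% of the footprint counts, and the strand setting of the counting is not given in the sources used here. The results below therefore rest on footprints, and total RNA follows at the end. In both arms at 2 h the cultures of replicate 3 stood apart from the others and deviated together. The NSC markers Nes, Sox2, Slc1a3, Fabp7, Egfr, Vim and Msi1 were present in every footprint library, from 30.7 CPM for Msi1 in its lowest library to 7105 CPM for Vim in its highest (CPM, a gene's count relative to all counts of its library, with TMM scaling). Endothelial markers summed to at most 0.429 CPM, and of 7 markers of microglia and other immune cells Aif1 and Cx3cr1 had no footprint, while the 7 summed to 11.9 to 45.4 CPM, nearly all from Itgam and P2ry12. The 4 neuronal markers (Rbfox3, Snap25, Syt1, Calb2) summed to 5.82 to 9.37 CPM in vehicle cultures at 14 h and to 3.43 to 4.70 in IFN-β cultures, without overlap, and their part in the results at 14 h was not tested. Of oligodendrocyte markers, Mbp had at most 1.12 CPM, Mog 0.143 and Mag 0.280 in any footprint library.

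In footprints Stat2 and Irf9 rose by 16.3-fold or more at both times, and Jak1, Jak2 and Stat3 rose by 1.25-fold to 1.90-fold. Without a replicate block, Ifnar2 and Tyk2 passed the test at 14 h and not at 2 h. Ifnar1 did not pass at either time, with or without the block. Of the 8 genes 5 were called higher at 2 h and 7 at 14 h, at an adjusted p under 0.05 in edgeR over all genes, and none was called lower. Over all genes tested, 5.25% were called higher and 2.01% lower at 2 h, and 26.2% higher and 26.3% lower at 14 h. The median change of the 8 genes was 0.69 on the log2 scale at 2 h and 0.57 at 14 h, against -0.02 and 0.00 over all genes tested. Since the 8 genes were chosen with earlier results of these data known, these counts and medians are a description and no support. The calls above come from a fit that leaves out the pairing by replicate number. Blocking on the number raised the calls at 2 h from 635 higher and 243 lower to 1920 and 1618. Ifnar2 was then among those called higher at 2 h (0.29, adjusted p = 0.0380). At 14 h the block called 3856 higher and 3753 lower in place of 3176 and 3185. In footprints of bulk cultures alone, more responding cells, more RNA per cell and more ribosomes per RNA cannot be told apart.

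**Figure D1:**
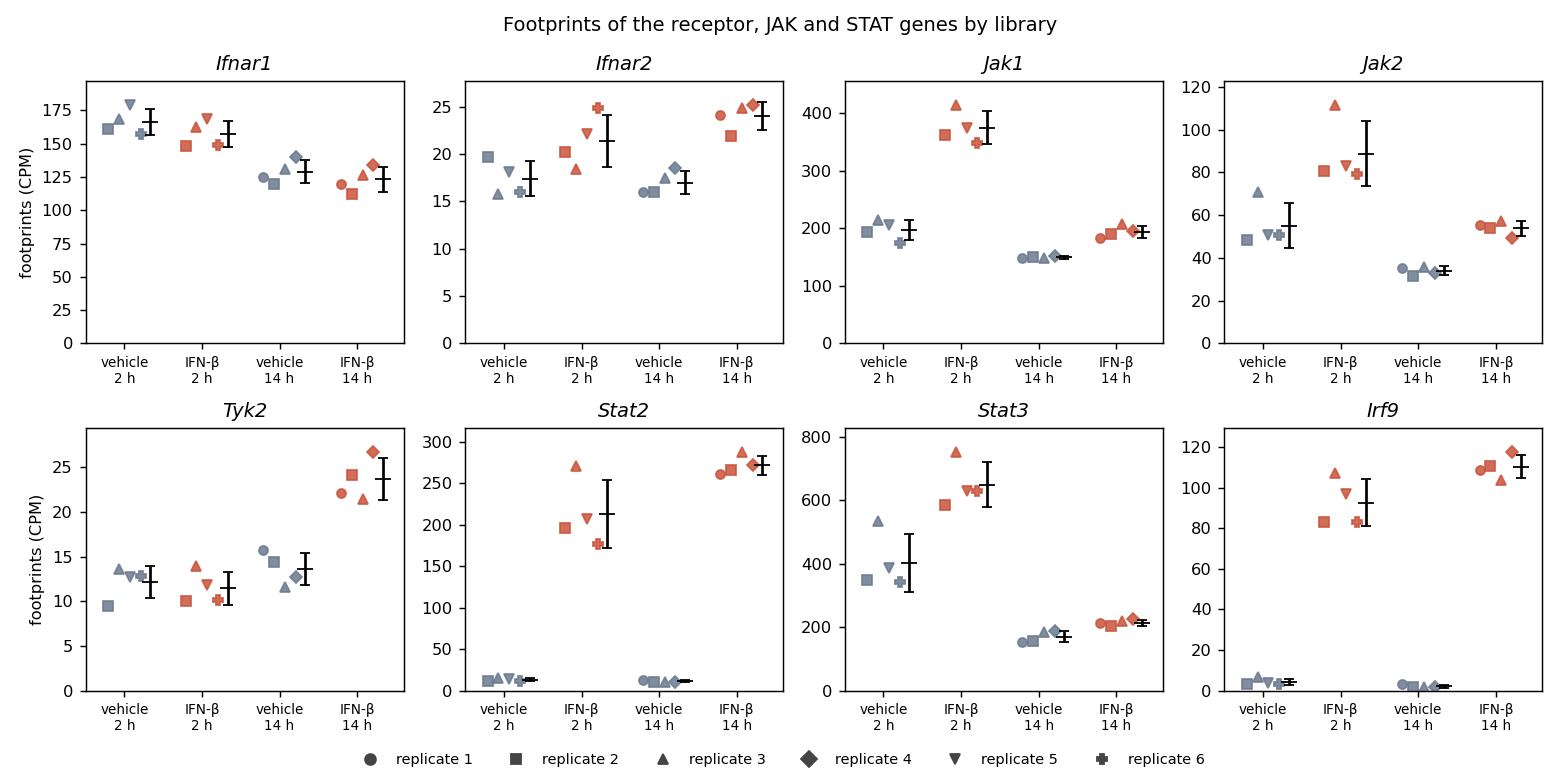
Footprints of each gene in the 16 footprint libraries, in CPM on axes that start at 0, with marker shapes for replicate numbers and black bars for the mean ± SD of 4 libraries. Stat2 and Irf9 lie near the bottom in all vehicle libraries and far above it in all IFN-β libraries, and Ifnar1 overlaps between arms at both times. Replicate 3 at 2 h is the highest library of its arm for Jak1, Jak2, Tyk2, Stat2, Stat3 and Irf9.

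Of the receptor subunits, Ifnar2 rose at 14 h and Ifnar1 did not pass. Ifnar1, the subunit that carries Tyk2 (chr16:91485238-91507441, plus strand, mm10), had 161, 169, 179 and 157 CPM in the vehicle cultures at 2 h and 148, 163, 168 and 149 in the IFN-β cultures, in the order of replicates 2, 3, 5 and 6. At 14 h the vehicle cultures 1 to 4 had 125, 119.6, 131 and 140 CPM and the IFN-β cultures 119.5, 113, 127 and 134. The arms overlapped at both times. Every IFN-β culture was a little below the vehicle culture of its number, by 0.920 to 0.966 times at 2 h and 0.942 to 0.967 times at 14 h, but the fitted log2 changes of -0.08 (SE 0.08, adjusted p = 0.735) and -0.07 (SE 0.07, adjusted p = 0.416) did not pass, nor did they with replicate number as a block (adjusted p = 0.220 and 0.132).

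Ifnar2, the subunit that carries Jak1 (chr16:91372783-91405589, plus strand), overlapped between arms at 2 h and was apart at 14 h. Its values at 2 h were 19.7, 15.8, 18.1 and 15.97 CPM with vehicle and 20.2, 18.4, 22.2 and 24.9 with IFN-β, the latter above vehicle in each of the 4 numbers. Its log2 change of 0.30 (SE 0.13) did not pass (adjusted p = 0.252), and it passed with replicate number as a block (0.29, SE 0.11, adjusted p = 0.0380). At 14 h the arms no longer overlapped, at 15.96, 16.1, 17.4 and 18.5 CPM with vehicle and 24.2, 21.9, 24.9 and 25.2 with IFN-β, and Ifnar2 rose 1.40-fold (log2 0.49, SE 0.09, adjusted p = 5.71e-04). A neighbouring protein-coding gene on the same strand, Gm21970, shares 315 bases of the Ifnar2 coding sequence, where the counting mode assigns a read to neither gene.

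Jak1, the kinase bound to Ifnar2 (chr4:101152367-101265282, minus strand), nearly doubled within 2 h and was closer to vehicle at 14 h. At 2 h it had 194, 214, 205 and 175 CPM with vehicle and 361, 414, 373 and 348 with IFN-β. The lowest IFN-β culture was well above the highest vehicle culture, and the rise was 1.90-fold (log2 0.93, SE 0.09, adjusted p = 2.69e-04). At 14 h the values were 148, 149, 148 and 152 CPM with vehicle and 183, 189, 206 and 196 with IFN-β, still apart but only 1.29-fold (log2 0.37, SE 0.05, adjusted p = 9.36e-05). The change at 14 h was 0.55 lower on the log2 scale than at 2 h (-0.55, SE 0.10, adjusted p = 8.16e-04).

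Tyk2, the kinase bound to Ifnar1 (chr9:21104068-21131243, minus strand), changed more at 14 h than at 2 h. At 2 h it had 9.46, 13.6, 12.7 and 12.8 CPM with vehicle and 9.98, 13.9, 11.9 and 10.1 with IFN-β, from 61 to 97 footprints per library, and the arms overlapped (log2 -0.08, SE 0.17, adjusted p = 0.899). The values at 14 h were 15.8, 14.4, 11.6 and 12.7 CPM with vehicle and 22.2, 24.2, 21.5 and 26.7 with IFN-β, without overlap, and Tyk2 rose 1.76-fold (log2 0.81, SE 0.12, adjusted p = 6.90e-05). The change at 14 h exceeded that at 2 h by 0.89 (SE 0.20, adjusted p = 0.00309). An antisense gene, 1700084C06Rik, overlaps 554 bases of Tyk2 exons but none of its coding sequence.

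Jak2, a kinase of cytokine and growth factor receptors (chr19:29251828-29313080, plus strand), rose at both times. It had 48.2, 70.7, 50.8 and 50.7 CPM with vehicle and 80.7, 112, 83.1 and 79.4 with IFN-β at 2 h, where replicate 3 was the high culture in both arms. The 14 h cultures had 35.5, 31.7, 35.9 and 32.9 CPM with vehicle and 55.4, 53.8, 57.0 and 49.1 with IFN-β. The arms did not overlap at either time, and the rises were 1.61-fold (log2 0.69, SE 0.16, adjusted p = 0.0288) and 1.57-fold (log2 0.65, SE 0.07, adjusted p = 6.97e-06). The 2 changes differed by -0.02 (SE 0.18, adjusted p = 0.944). The call at 2 h was lost when any 1 of the vehicle or IFN-β cultures 2, 5 and 6 was left out (adjusted p up to 0.101). It held with replicate number as a block (adjusted p = 3.29e-10). Without replicate 3 of both arms the change was 0.71 (adjusted p = 2.90e-05). That fit was chosen after seeing the data, so it is no support for the call.

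Stat3, a transcription factor shared by many cytokine receptors (chr11:100885098-100939540, minus strand), rose at both times. At 2 h it had 347, 535, 386 and 341 CPM with vehicle and 587, 752, 629 and 631 with IFN-β, without overlap and again with replicate 3 highest in both arms. The 14 h cultures had 153, 157, 185 and 186 CPM with vehicle and 212, 203, 219 and 225 with IFN-β, also without overlap. The rise was 1.62-fold at 2 h (log2 0.69, SE 0.16, adjusted p = 0.0277) and 1.25-fold at 14 h (log2 0.32, SE 0.07, adjusted p = 0.00201). The call at 2 h was lost when any culture other than vehicle replicate 3 was left out (adjusted p up to 0.0964). It held with replicate number as a block (adjusted p = 4.09e-12). The difference between the times, -0.36 (SE 0.18), did not pass (adjusted p = 0.137). It passed with the block (-0.38, adjusted p = 4.20e-05) and without vehicle replicate 3 at 2 h (-0.53, adjusted p = 0.00533). Without replicate 3 of both arms the change at 2 h was 0.79 (adjusted p = 1.39e-05) and the difference -0.45 (adjusted p = 0.00213). That fit was chosen after seeing the data, so these 2 values are no support. Stat5a lies on the other strand and overlaps 72 bases of Stat3 exons outside its coding sequence.

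Stat2, the STAT that binds Irf9 in ISGF3 (chr10:128270559-128292849, plus strand), was scarce with vehicle and abundant with IFN-β. At 2 h it had 11.4, 15.7, 13.6 and 11.6 CPM with vehicle and 195, 271, 207 and 176 with IFN-β. The 14 h cultures had 12.9, 10.6, 10.8 and 10.1 CPM with vehicle and 261, 265, 288 and 272 with IFN-β. The arms were far apart at both times, and Stat2 rose 16.3-fold at 2 h (log2 4.03, SE 0.17, adjusted p = 1.19e-06) and 24.8-fold at 14 h (log2 4.63, SE 0.08, adjusted p = 4.11e-14). The change at 14 h was larger by 0.60 (SE 0.19, adjusted p = 0.0218).

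Irf9, the DNA-binding partner of the STATs in ISGF3 (chr14:55603571-55610030, plus strand), had the largest fitted footprint change of the 8 genes at both times. At 2 h it had 3.40, 6.43, 3.71 and 3.03 CPM with vehicle, from 22 to 46 footprints, and 83.2, 107, 97.1 and 83.1 with IFN-β. At 14 h it had 3.23, 1.79, 1.98 and 1.61 CPM with vehicle, from 16 to 18 footprints, and 109, 111, 104 and 118 with IFN-β. Irf9 rose 22.5-fold at 2 h (log2 4.49, SE 0.22, adjusted p = 2.11e-06) and 53.8-fold at 14 h (log2 5.75, SE 0.12, adjusted p = 2.81e-13). The change at 14 h was larger by 1.25 (SE 0.28, adjusted p = 0.00347). The IFN-β cultures lay between 83.1 and 118 CPM over both times, and the vehicle cultures between 3.03 and 6.43 CPM at 2 h and between 1.61 and 3.23 at 14 h. Rnf31, upstream on the same strand, shares 123 bases of annotated Irf9 exons, none of them coding.

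**Figure D2:**
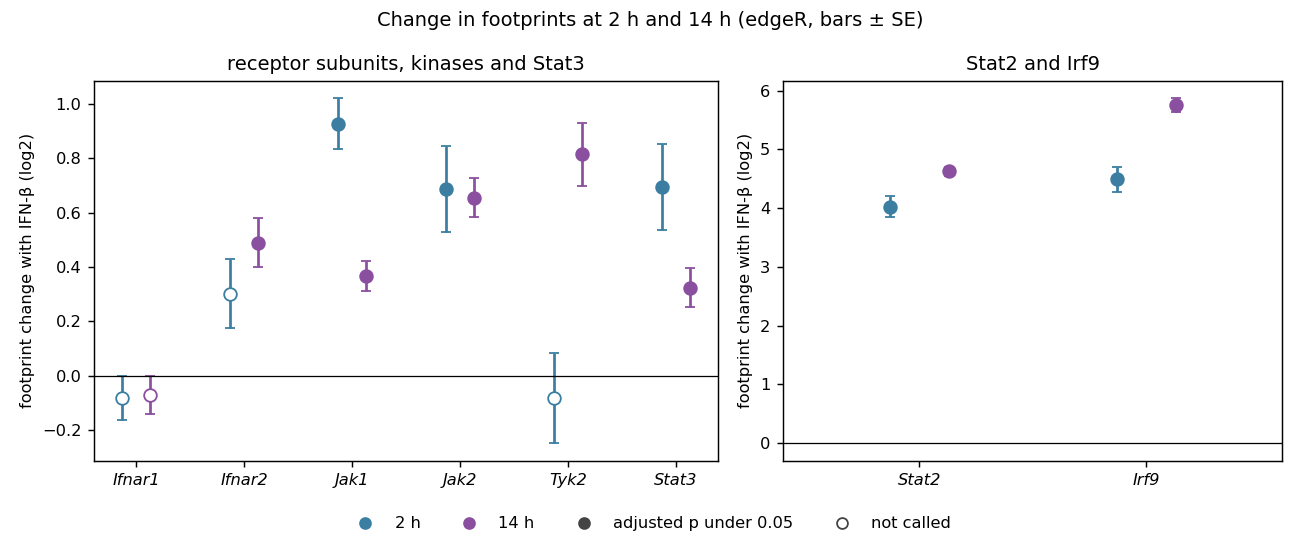
Log2 change in footprints with IFN-β against vehicle at 2 h (blue) and 14 h (purple) from edgeR with 4 libraries a group, bars ± SE, filled where the adjusted p is under 0.05. Jak1 lies higher at 2 h and Tyk2 at 14 h, Ifnar1 stays just below 0, and Stat2 and Irf9, on a separate axis, lie between 4.03 and 5.75.

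The bases upstream of the starts are shown for both ISGF3 subunits, which had the largest changes, and for Ifnar2, whose window holds a motif match. RefSeq starts on GRCm38.p6 were matched for all 8 genes, with 250 bases before and 50 after each start, and searched on both strands for the core of the interferon-stimulated response element (ISRE; GAAA, any 2 bases, GAAA) and for the gamma-activated site (GAS; TTC, any 3 bases, GAA). An ISRE core was in 3.44% of all 32851 such windows and a GAS in 8.30%. Among the 8 genes the Stat2 window held 1 ISRE core, 222 bases before the start, the Ifnar2 window held 1 GAS, 214 bases before the start, and the Ifnar1 window held 1 GAS, TTCACGGAA, that begins 5 bases before the start. Neither motif was in the windows of Jak1, Jak2, Tyk2 and Stat3 or in the 2 windows of Irf9, which says only that these letters are not there. Both Irf9 windows lie inside the annotated gene (chr14:55603571-55610030), so the bases before its annotated start were not searched. The 250 bases before the start of Stat2 (chr10:128270248-128270497, plus strand), Ifnar2 (chr16:91372533-91372782, plus strand) and the first start of Irf9 (chr14:55603735-55603984, plus strand) read as follows, with the motif match in capitals where there is one.
Stat2: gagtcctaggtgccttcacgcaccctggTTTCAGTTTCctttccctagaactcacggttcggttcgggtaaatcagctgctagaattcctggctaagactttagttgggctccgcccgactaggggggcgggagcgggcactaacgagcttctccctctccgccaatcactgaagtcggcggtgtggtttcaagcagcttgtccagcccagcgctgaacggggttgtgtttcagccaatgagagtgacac
Ifnar2: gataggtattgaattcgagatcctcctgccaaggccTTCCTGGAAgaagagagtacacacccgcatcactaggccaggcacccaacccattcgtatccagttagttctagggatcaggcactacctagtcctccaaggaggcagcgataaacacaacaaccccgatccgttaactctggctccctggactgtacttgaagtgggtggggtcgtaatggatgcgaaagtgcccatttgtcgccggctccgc
Irf9: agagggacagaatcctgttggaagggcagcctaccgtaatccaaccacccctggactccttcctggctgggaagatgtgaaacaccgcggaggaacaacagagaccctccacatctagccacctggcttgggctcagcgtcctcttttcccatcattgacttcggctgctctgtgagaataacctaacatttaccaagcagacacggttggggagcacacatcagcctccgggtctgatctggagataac

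The responses at 14 h and at 2 h were compared for each gene in 1 fit of all 16 footprint libraries. This fit tests whether the change with IFN-β differs between the libraries of the 2 times. Tyk2, Stat2 and Irf9 had a larger change at 14 h and Jak1 a smaller one, so that 3 of the 8 genes were called higher and 1 lower. Over all genes tested 15.4% were called higher and 15.5% lower. The differences of Ifnar1 (0.02, SE 0.10, adjusted p = 0.922), Ifnar2 (0.20, SE 0.15, adjusted p = 0.335) and Jak2 did not pass. The vehicle cultures themselves were not at the same level at both times. Stat3 was 2.36-fold higher with vehicle at 2 h than at 14 h, Jak2 1.62-fold, Jak1 1.32-fold and Ifnar1 1.29-fold, without overlap of the 4 cultures of each time, while Ifnar2 (1.02-fold), Tyk2 (0.891-fold) and Stat2 (1.18-fold) overlapped. Irf9 was 1.92-fold higher with vehicle at 2 h, with overlap of 1 culture of each time, at 3.03 CPM at 2 h and 3.23 CPM at 14 h. Time since treatment and the set of cultures cannot be told apart in these vehicle values, which were not tested. In the differences in response above the 2 cannot be told apart either.

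**Figure D3:**
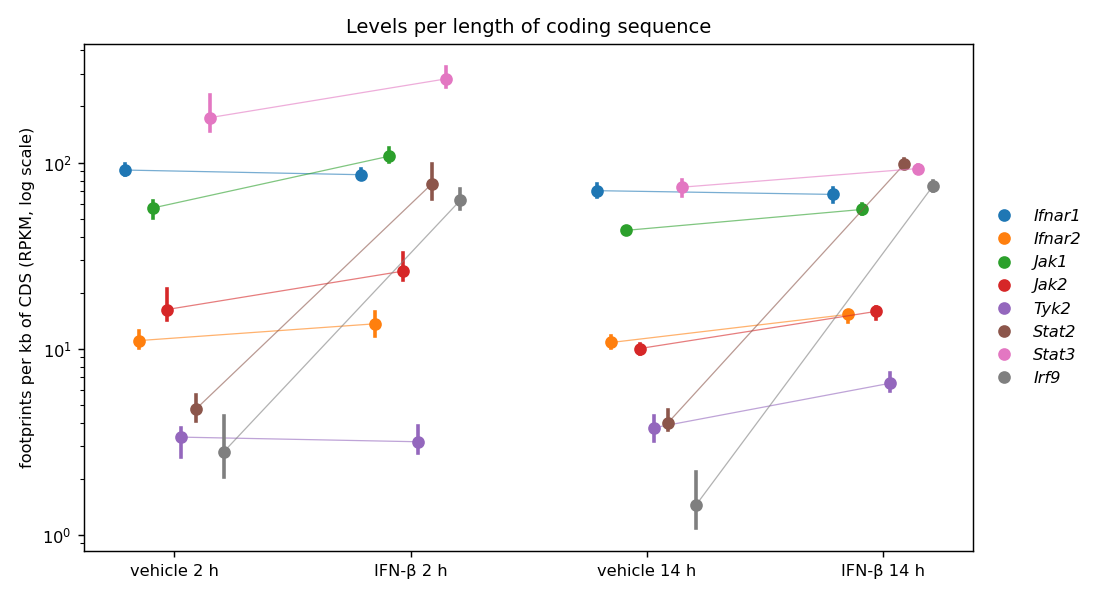
Footprint CPM per kilobase of coding sequence (RPKM, log axis) of each gene in the 4 groups, with the mean of 4 libraries as a point and their range as a bar, and a line from vehicle to IFN-β at each time. Stat2 and Irf9 leave the lowest ranks of the vehicle groups, Stat2 overlaps Ifnar1 with IFN-β at 2 h and lies above it at 14 h, Irf9 lies below Ifnar1 at 2 h and overlaps it at 14 h, and Tyk2 has the lowest mean with IFN-β at both times.

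Levels can be compared between genes per length, as CPM per kilobase of coding sequence (RPKM). With vehicle at 2 h the order of the mean levels was Stat3 (174 RPKM), Ifnar1 (91.1), Jak1 (57.0), Jak2 (16.2), Ifnar2 (11.0), Stat2 (4.72), Tyk2 (3.35) and Irf9 (2.80). Of neighbours in this order only Tyk2 and Irf9 had overlapping libraries, with RPKM taken over all annotated coding bases. The Ifnar2 bases shared with Gm21970 may hold no counted read, so its place against Jak2 is not settled. With IFN-β at 2 h it was Stat3 (281 RPKM), Jak1 (108), Ifnar1 (86.0), Stat2 (76.7), Irf9 (62.5), Jak2 (26.1), Ifnar2 (13.6) and Tyk2 (3.16), and the libraries of Stat2 overlapped those of Ifnar1 and of Irf9. Jak1 passed Ifnar1, and both ISGF3 subunits passed Jak2 and Ifnar2.

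With vehicle at 14 h Stat3 (73.7 RPKM) overlapped Ifnar1 (70.6), and below them came Jak1 (43.2), Ifnar2 (10.8) overlapping Jak2 (10.0), Stat2 (4.00) overlapping Tyk2 (3.76), and Irf9 (1.45). With IFN-β at 14 h Stat2 (98.0 RPKM) was the highest, overlapping Stat3 (92.8), then Irf9 (74.4) overlapping Ifnar1 (67.4), Jak1 (55.9), Jak2 (15.9) overlapping Ifnar2 (15.3), and Tyk2 (6.52). From the scarcest 3 of the 8 genes with vehicle, Stat2 thus came to overlap Stat3 and Irf9 the receptor subunit Ifnar1 at 14 h, and Tyk2, above Irf9 with vehicle, was the lowest with IFN-β. RPKM divides by all 1574 coding bases of Ifnar2, of which the 315 shared with Gm21970 may hold no counted read, so its level may be understated and its place against Jak2 is not settled.

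The balance between partners was read within each library, where the scaling cancels. The pairs, chosen after the footprint values had been seen, are the 2 receptor subunits, the 2 kinases they carry and the 2 ISGF3 subunits in this set. Because of that choice the p-values below are no support. The pairs were compared at both times by an exact permutation test, two-sided, of the log2 ratio per length over 4 against 4 libraries. The smallest p that this design allows is 0.0286, and adjusted over the 6 comparisons every p came to 0.0571, so none passed at 0.05. Taken by replicate number, Ifnar1 over Ifnar2 was lower with IFN-β in 4 of 4 numbers at both times, Jak1 over Tyk2 was higher in 4 of 4 at 2 h and lower in 4 of 4 at 14 h, and Stat2 over Irf9 was lower in 3 of 4 at 2 h and 4 of 4 at 14 h, where a paired exact test could not go below p = 0.125. At 2 h Ifnar1 over Ifnar2 lay between 7.06 and 9.19 in the vehicle cultures and between 5.17 and 7.63 in the IFN-β cultures (exact p = 0.0571), and between 6.41 and 6.76 against 4.26 and 4.58 at 14 h (exact p = 0.0286). The vehicle cultures had a Jak1 over Tyk2 of 14.3 to 21.5 at 2 h, and the IFN-β cultures of 31.2 to 37.9 (exact p = 0.0286), but 9.81 to 13.4 and 7.67 to 10.1 at 14 h (exact p = 0.0571). For Stat2 over Irf9 the vehicle cultures had 1.30 to 2.04 at 2 h and the IFN-β cultures 1.14 to 1.35 (exact p = 0.0571), and 2.14 to 3.33 against 1.24 to 1.48 at 14 h (exact p = 0.0286). With IFN-β, Stat2 over Irf9 had a mean of 1.22 ± 0.105 at 2 h and 1.32 ± 0.108 at 14 h, and Jak1 over Tyk2 a mean of 34.5 ± 3.01 and 8.64 ± 1.03 (SD, n = 4 each), which were not tested between the times.

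Over the 16 footprint libraries the log2 CPM of Stat2 and Irf9 had a Pearson correlation of 0.995, and each was among the 3 genes most like the other of 10314 genes with a mean of at least 50 footprints. Cmpk2 (r = 0.997) and Trex1 (r = 0.996), both ISGs, came before Irf9 for Stat2, and Gbp8 (r = 0.996), which encodes an interferon-induced GTPase, was the first for Irf9. Jak1, Jak2 and Stat3 correlated with each other at 0.896 to 0.936, and Ifnar1 with Tyk2 at -0.633. The genes most like Jak1 were Tspan4, Rnf19b (both r = 0.979) and Gadd45g (r = 0.977), those most like Jak2 Gna13 (r = 0.977), Hsd3b7 (r = 0.970) and Adamts4 (r = 0.969), and those most like Stat3 Paqr8 (r = 0.993), Gfra1 (r = 0.992) and S1pr1 (r = 0.991). For the receptor subunits they were Ncam1 (r = 0.955), Ttc39c (r = 0.952) and Kcnip1 (r = 0.951) for Ifnar1 and S100a11, Sec23b (both r = 0.891) and Gm7334 (r = 0.887) for Ifnar2, and for Tyk2 Itfg1 (r = 0.951), Nudt9 and Fkbp9 (both r = 0.944). These values are a description over libraries that hold both arms and both times, and carry no test.

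**Figure D4:**
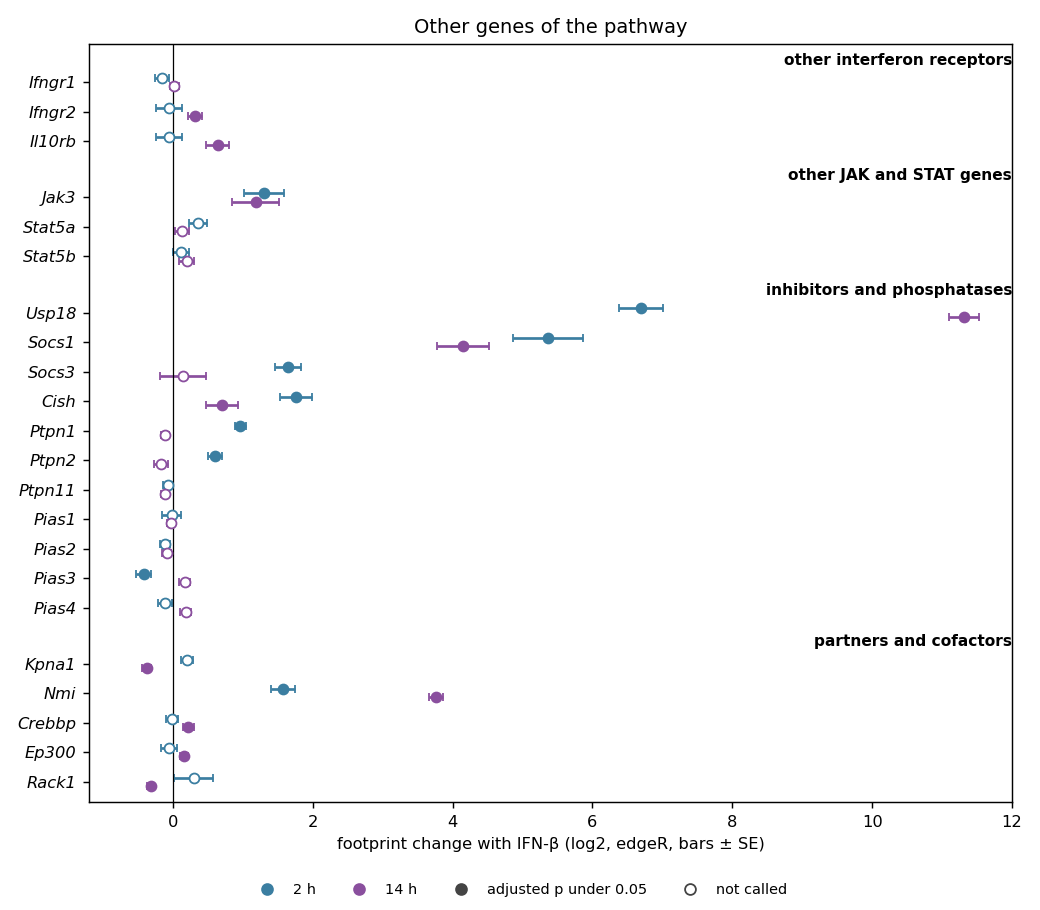
Log2 change in footprints with IFN-β at 2 h (blue) and 14 h (purple) for the other listed genes of the pathway that were tested at both times, from edgeR with 4 libraries a group, bars ± SE, filled where the adjusted p is under 0.05. The inhibitors Usp18 and Socs1 lie far to the right at both times, while Socs3, Ptpn1 and Ptpn2 are right of 0 at 2 h and near 0 at 14 h.

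Of 28 other listed genes of the pathway, 27 with a row in the tables, 23 were tested at 2 h, of which 9 were called higher and 1 lower, and 24 at 14 h, of which 11 were called higher and 2 lower, with median log2 changes of 0.20 and 0.17. Beside these stand the shares over all genes, 5.25% higher and 2.01% lower at 2 h and 26.2% higher and 26.3% lower at 14 h. This list too was chosen with earlier results of these data known, so the counts are a description. Of the inhibitors and phosphatases 7 of 12 tested were called higher and 1 lower at 2 h, and at 14 h 4 of 12 were called higher, a share near that of all genes. Socs1 at both times, Socs2 at 2 h and Usp18 at 14 h met the filter of 10 counts in 4 libraries only through the IFN-β cultures, so their calls within these counts are no support. Usp18, which binds Ifnar2 and restrains signalling, lay between 1.28 and 2.65 CPM in vehicle cultures and between 139 and 289.6 in IFN-β cultures at 2 h (log2 6.69, SE 0.31, adjusted p = 2.00e-06). At 14 h these ranges were 0 to 0.619 and 547 to 709.6 CPM, where the 4 vehicle cultures held 8 footprints in all. Socs1, an inhibitor of JAKs, had 0 to 0.839 CPM in vehicle cultures and 9.95 to 22.5 in IFN-β cultures at 2 h, and 0.124 to 0.538 and 3.85 to 7.87 CPM at 14 h, from 0 to 6 footprints per vehicle library. Without any 1 of the IFN-β cultures it was not tested.

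Socs3, Ptpn1 and Ptpn2 passed at 2 h and not at 14 h, and the difference between the times passed for each. Socs3, an inhibitor of receptors that signal through Stat3, changed by 1.65 (SE 0.19, adjusted p = 5.13e-04) at 2 h and 0.14 (SE 0.33, adjusted p = 0.738) at 14 h, with a difference of -1.48 (SE 0.38, adjusted p = 0.00813). Ptpn1, a phosphatase that acts on Jak2 and Tyk2, changed by 0.97 (SE 0.08, adjusted p = 1.02e-04) at 2 h and by -0.12 at 14 h, with a difference of -1.07 (SE 0.10, adjusted p = 8.27e-07). Ptpn2, a phosphatase that acts on Jak1, changed by 0.61 (SE 0.10, adjusted p = 0.00465) at 2 h and by -0.17 at 14 h, with a difference of -0.78 (SE 0.14, adjusted p = 6.85e-04). Blocking on replicate number, the change of Ptpn1 at 14 h passed (-0.12, adjusted p = 0.0467), and without vehicle replicate 4 that of Ptpn2 did (-0.24, adjusted p = 0.0445). Pias3, an inhibitor of Stat3, changed by -0.42 at 2 h (SE 0.10, adjusted p = 0.0398), a call lost when any 1 of the cultures 2, 5 and 6 of either arm was left out (adjusted p up to 0.132).

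Among the other receptors, Il10rb, a subunit of the interferon lambda and IL-10 receptors encoded next to Ifnar1 and Ifnar2 on chromosome 16, rose by 0.64 (SE 0.17, adjusted p = 0.00586) at 14 h, and Ifngr2 by 0.32 (SE 0.10, adjusted p = 0.0160), a call lost without vehicle replicate 4 (0.27, adjusted p = 0.0501). Neither passed at 2 h. Jak3, the kinase of the common gamma chain, rose at 2 h by 1.30 (SE 0.29, adjusted p = 0.0249) and at 14 h by 1.18 (SE 0.34, adjusted p = 0.0111), from 4 to 69 footprints per library. Its call at 2 h was lost without any 1 of the cultures 2, 5 and 6 of either arm (adjusted p up to 0.0895), and that at 14 h without IFN-β replicate 4 (0.95, adjusted p = 0.0535). Nmi, a partner of STATs, rose by 1.57 (SE 0.17, adjusted p = 3.81e-04) at 2 h and by 3.76 (SE 0.10, adjusted p = 1.76e-12) at 14 h. Kpna1, an importin that carries STAT dimers into the nucleus, was called lower at 14 h (-0.38, SE 0.07, adjusted p = 4.06e-04) and did not pass at 2 h (0.20, adjusted p = 0.228), except with the block (0.20, adjusted p = 0.00664).

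In total RNA the 8 genes were near the limit of the counts, as the plot of raw counts by kind of library shows. With the directional kit used, and the strand setting unknown, counts of a gene cannot be told apart from counts of the strand opposite to it, so the total RNA and TE values below may not measure these genes' own RNA. At 2 h 7 of the 8 genes were tested and at 14 h 3, and the 1 gene called higher at each time was Irf9, where 0.722% and 3.47% of all genes tested were called higher. Irf9 met the filter on low counts only through its IFN-β libraries, so its calls are no support and its counts are given as a description. It had 2, 1, 2 and 1 counts with vehicle and 60, 52, 41 and 25 with IFN-β at 2 h, without overlap. At 14 h it had no count in any vehicle library and 12, 17, 19 and 12 with IFN-β, at least 14.9-fold against 3 counts over the vehicle group. Stat2 had 23, 23, 19 and 43 counts with vehicle and 101, 53, 60 and 23 with IFN-β at 2 h, with overlap and a log2 change of 0.92 (SE 0.33, adjusted p = 0.462). At 14 h it had 28, 13, 3 and 12 counts with vehicle and 21, 16, 19 and 12 with IFN-β (log2 -0.14, SE 0.31, adjusted p = 0.859). Jak1 had 1 to 7 total RNA counts per library at 14 h, against 544 to 1824 footprints. Without any 1 of the IFN-β libraries Irf9 no longer met the filter on low counts and was not tested (0 of the 8 genes called).

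**Figure D5:**
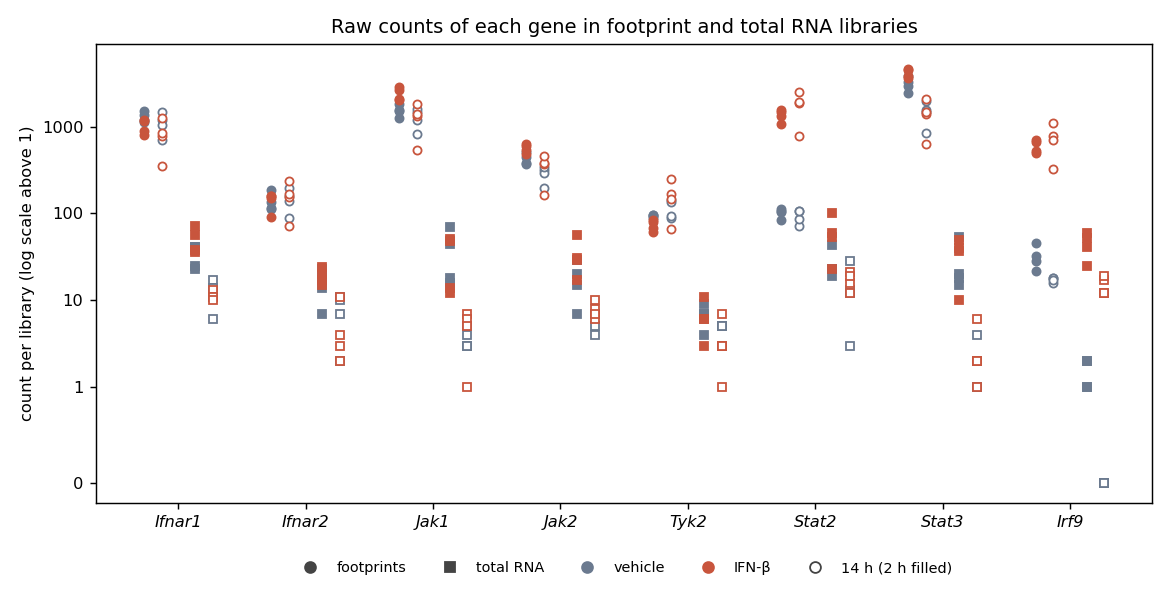
Raw counts of each gene per library in footprints (circles) and total RNA (squares), filled at 2 h and open at 14 h, grey for vehicle and red for IFN-β, on an axis that is logarithmic above 1. Total RNA counts reach at most 101 (Stat2) and go down to 0 for Irf9 with vehicle at 14 h.

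Translational efficiency (TE), the change in footprints relative to that in total RNA, was called higher at an adjusted p under 0.1 for Stat2 alone at 2 h (log2 3.15, SE 0.37, adjusted p = 6.46e-05), where 0.581% of all genes tested were. At 14 h it was called higher for Stat2 (4.74, SE 0.31, adjusted p = 1.38e-10), Tyk2 (1.59, SE 0.50, adjusted p = 0.0611) and Ifnar2 (1.48, SE 0.45, adjusted p = 0.0494), where 4.54% were. The Ifnar2 and Tyk2 values rest on 2 to 11 and 1 to 7 total RNA counts per library. The Ifnar2 call was lost with replicate number as a block (1.36, adjusted p = 0.117), with total counts alone (1.45, adjusted p = 0.105) and without 5 of the 8 cultures in turn (vehicle replicates 2 and 4, IFN-β replicates 2, 3 and 4, adjusted p up to 0.236). That of Tyk2 was lost with total counts alone (1.54, adjusted p = 0.110) and without 6 of the 8 (vehicle replicates 2, 3 and 4, IFN-β replicates 1, 2 and 4, adjusted p up to 0.168). The TE change of Irf9 at 2 h was -0.08 (SE 0.30, adjusted p = 1.00), and none is given at 14 h, where its vehicle total RNA is at 0. The part of the low total RNA counts and of the strand of counting in these TE values was not tested.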

How the data were processed

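Ribo-Seq and total RNA libraries of NSC cultures were analysed from the deposited counts. Per the labels and the study's methods, the authors trimmed reads with TrimGalore 0.4.4, mapped them to Ensembl transcripts of mm10 with Bowtie 0.12.7, discarded duplicate reads and summarised the rest by gene in "Union" mode, footprints (cut from the gel at 26 to 34 nt) in the coding sequence and total RNA over the gene body. The deposited counts are raw whole numbers. No column was left out.

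IDs were matched to GENCODE M21 symbols, for 22205 of 23035 footprint genes. The 8 genes and all lists were chosen with earlier results of these data known. The text names all 8 genes, any of the 28 listed pathway genes, the 3 genes most like each of the 8 by Pearson correlation of log2(CPM + 0.5), and genes that overlap them.

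A gene was tested if 4 or more libraries held 10 or more counts, in R 4.3.3 with edgeR 4.0.16 (TMM, quasi-likelihood test, two-sided, Benjamini-Hochberg over all genes), over the 8 libraries of a comparison, or 16 for TE and for the difference between times. TE was the interaction of treatment and kind of library. Levels are CPM with TMM over 16 libraries, and RPKM over the union of annotated coding exons. Ratios between genes were tested by exact permutation with scipy 1.17.1. Pairs for these ratios were chosen after the footprint values had been seen. Scripts were tested on simulated data. Alternatives were DESeq2 1.42.0, limma-voom (limma 3.58.1), other scalings and filters, a replicate block and each culture left out. The fit without replicate 3 of both arms at 2 h was chosen after seeing the data.

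Replicate numbers were checked for pairing by the correlation, over genes, of same-numbered cultures' deviations from their group means. In footprints it was 0.345 to 0.821 at 2 h and 0.203 to 0.434 at 14 h, so the numbers were taken to pair footprint libraries. The main fits nevertheless carry no block, which was run as an alternative. In total RNA it was -0.484 to 0.388 and -0.01 to 0.247, so no pairing was read from these libraries. Both kinds of library came from the same lysates, so this does not show that the cultures were unpaired. No 2 libraries of a group held identical counts.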

Additional observations from a re-analysis of the deposited data

Results flagged for a closer look

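Jak2 footprints in replicate 3 at 2 h lay far above the other 3 cultures of the arm in both arms, at 70.7 CPM in a vehicle range of 48.2 to 70.7 and at 112 CPM in an IFN-β range of 79.4 to 112. These were 2 of 32 groups of 4 libraries looked at, a share near the 1 in 20 that chance gives. Both are of the same gene and replicate number, whose cultures deviated together, so they are not independent.

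The response to IFN-β differed between the times, by the interaction in edgeR, for Irf9 (14 h minus 2 h of 1.25 on the log2 scale), Stat2 (0.60), Tyk2 (0.89) and Jak1 (-0.55). Time since treatment and the set of cultures cannot be told apart in these differences.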

How the results depend on the processing

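Numbers of called genes among the 8 moved under these settings. Under a stricter filter, a mean count of 50 or more, none was called in total RNA or TE at either time (0 in each of these 4 comparisons), since those called were then no longer tested. In TE at 14 h 1 was called with total counts alone and 4 with limma-voom, which added Irf9, at 0 counts in all vehicle total RNA libraries. Without replicate 3 of both arms at 2 h, a setting chosen after seeing the data, none was called in total RNA (0), where Irf9 was no longer tested. Leaving out each culture in turn gave 3 to 5 called in footprints at 2 h, 0 to 1 in total RNA at each time and 1 to 3 in TE at 14 h. The footprint calls of the 7 genes at 14 h and of Jak1, Stat2 and Irf9 at 2 h held under every setting run.

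Replicate number as a block, the paired fit, added Ifnar2 in footprints at 2 h (0.29, adjusted p = 0.0380) and Stat3 in the difference between times (-0.38, adjusted p = 4.20e-05), took away Ifnar2 in TE at 14 h (1.36, adjusted p = 0.117) and changed no other call among the 8 genes. Over all genes it called 1920 higher and 1618 lower in footprints at 2 h and 3499 and 3445 in the difference between times, where the fit without it called 1926 and 1941. In total RNA it called 59 and 4 at 2 h in place of 84 and 9, and in TE 115 and 50 in place of 82 and 33.

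Values that did not pass changed sign as follows. In TE at 2 h Ifnar2 came to -0.11 and Tyk2 to -0.19 with total counts alone, Irf9 to 0.29 in limma-voom, and without replicate 3 of both arms Jak2 to 0.11, Tyk2 to -0.058 and Irf9 to 0.42. The difference between times of Jak2 was 0.021 under the stricter filter, and Ifngr2 in footprints at 2 h was 0.11 without replicate 3 of both arms. With each culture left out in turn the ranges that crossed 0 were, in footprints, -0.16 to 0.059 for Il10rb and -0.14 to 0.14 for Ifngr2 at 2 h and -0.12 to 0.34 for Socs3 at 14 h. In total RNA they were -0.042 to 0.59 for Stat3 at 2 h and -0.31 to 0.19 for Stat2 at 14 h. In TE they were -0.0093 to 0.29 for Ifnar2, -0.13 to 0.14 for Jak2, -0.26 to 0.71 for Tyk2 and -0.44 to 0.45 for Irf9 at 2 h, and -0.090 to 0.89 for Stat3 at 14 h. For the difference between times they were -0.020 to 0.069 for Ifnar1, -0.16 to 0.10 for Jak2 and -0.44 to 0.16 for Jak3. The cause was not tested.

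Numbers of calls over all genes, higher and lower together, moved by more than 1.5 times, beside the block, in these cases. In footprints at 2 h 1033 were called higher and 638 lower without replicate 3 of both arms, and 437 and 126, 398 and 119, and 424 and 151 without IFN-β replicate 2, 5 or 6. In total RNA at 2 h, in place of 84 and 9, 134 and 35 were called with DESeq2, 150 and 24 without a filter on low counts, 40 and 4 under the stricter filter, 37 and 2 without replicate 3 of both arms, 53 and 4 without vehicle replicate 5, and 29 and 1, 32 and 1, and 39 and 1 without IFN-β replicate 2, 5 or 6, while with total counts alone the split was 91 and 23. In total RNA at 14 h, in place of 261 and 213, 180 and 93 were called with total counts alone and 124 and 123 under the stricter filter, and 105 and 66, 123 and 90, 159 and 112, and 152 and 113 without IFN-β replicate 1, 2, 3 or 4. In TE at 2 h 170 and 89 were called with DESeq2, 180 and 62 with limma-voom, 37 and 18 with total counts alone, 18 and 9 under the stricter filter, 125 and 61 without replicate 3 of both arms, 58 and 15 without vehicle replicate 5 and 51 and 16 without IFN-β replicate 5. In TE at 14 h, in place of 610 and 531, 350 and 359 were called with total counts alone and 188 and 194 under the stricter filter. Scaling by total counts alone took the median log2 change over all genes from 0.04 to 0.23 in total RNA at 2 h, from -0.01 to 0.09 at 14 h, and from -0.04 to -0.34 in TE at 2 h. Counts of 0 to 101 per total RNA library limit what can be said of the 8 genes outside footprints.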
